A study of Homo sapiens with 4 samples.

Results

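The actomyosin cytoskeleton genes described here are 10 genes of the actin filaments and of the proteins that pull on, stiffen or anchor them: ACTB, ACTG1, MYH9, MYH10, MYL9, TPM1, ACTN1, ACTN4, FLNA and VCL. Probes were assigned to them by the platform annotation, which named 11 probes for 9 of the 10 genes, out of 21703 named probes for 18637 genes on the array. MYH10 and TPM1 had 2 probes each and the other 7 genes had 1. FLNA, the gene of filamin A, had no probe named for it and was not analysed here.

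The cells were HEK293, an immortalized human embryonic kidney line, carrying a transgene for LGP2 or for LGP2-4KR. LGP2 is a cytosolic helicase related to the RNA sensor RIG-I, and the labels do not define the abbreviation 4KR. RNA was taken from each line either unstimulated, called 0 h here, or 12 h after 100 ng/ml of short (low molecular weight) poly I:C, which mimics viral double-stranded RNA, had been transfected with a Lipofectamine reagent. The 4 groups, LGP2 at 0 h, 4KR at 0 h, LGP2 at 12 h and 4KR at 12 h, held 1 array each. All groups shared the HEK293 background and a transgene, and no array came from the parental line, from mock-transfected cells or from cells kept untreated for 12 h. The labels do not say whether a line is 1 clone or a pool, or what drives the transgene. Effects of poly I:C, of the transfection and of 12 h in culture therefore cannot be told apart, and neither can fewer cells and less RNA per cell.

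Beta- and gamma-actin polymerise into the filaments of nonmuscle cells. Nonmuscle myosin II, a hexamer of heavy chains and light chains, binds those filaments and contracts them, tropomyosins run along them, alpha-actinins and filamins crosslink them, and vinculin ties them to integrin adhesions. In epithelial lines such as HEK293 this network sets cell shape, spreading and adhesion, and many of its genes carry binding sites for serum response factor, a transcription factor whose cofactors sense unpolymerised actin.

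The deposited intensity is the value of the authors' series table, a linear intensity already scaled. Its medians over the named probes were 26.50 to 27.10, but the number of values differed by array, from 18407 to 19820. The normalized level is a log2 value computed from the scanner tables, and a log2 response is the level at 12 h minus the level at 0 h in the same line, so that a negative value is a lower level at 12 h. Computed from deposited values, the median log2 response of all genes stood at 0.24 (LGP2) and 0.15 (4KR). Deposited intensities are therefore not level between 0 h and 12 h. A deposited rise can stand beside a normalized response at or below 0. No level of one gene is set against that of another, since probes differ in brightness. Between 83.2% and 89.2% of gene probes were detected per array, that is, above the mean of the blank spots by 2 of their SD, and 15736 genes were detected on all 4 arrays. All 9 actomyosin genes with a probe were among them. A response of 1 line has no replicate. As a guide to scatter across the array, 2 control probes spotted 24 times each had responses with SDs between 0.0844 and 0.117 on the log2 scale.

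At 12 h ACTB and ACTG1 (actins), MYH9 and MYH10 (myosin heavy chains) and VCL (vinculin) were lower in both lines. The median log2 response of the 9 genes was -0.26 in LGP2 cells, with a range from -0.63 to 0.11, against -0.01 over all 15736 genes. In 4KR cells the median was -0.43, with a range from -0.80 to -0.02, against -0.01 over all genes. The response was below 0 for 8 of 9 genes in LGP2 cells and for 9 of 9 in 4KR cells, where the background was 55.5% and 55.2% of all genes. In both lines at once it was below 0 for 8 of 9, against 42.9%. In LGP2 cells 1 of 9, MYH9, was lower by at least 1.5-fold, against 0.534% of all genes, and in 4KR cells 2 of 9, MYH9 and ACTN1, against 0.445%. None of the 9 was higher by 1.5-fold in either line, where 1.94% and 1.62% of all genes were. None was past 2-fold, a size that 0.0127% of all genes reached downward and 0.432% upward in LGP2 cells, and 0% and 0.394% in 4KR cells.

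For a test, both lines were fitted together in limma with terms for line and time, so that the lines stand in for replicates and each gene has 1 residual degree of freedom. In this fit 4 of 9 genes, ACTG1, MYH9, MYH10 and VCL, fell at an adjusted p under 0.05, against 8.73% of all genes, and 0 of 9 rose, against 9.2%. The median change of the 9 genes in the fit was -0.35, against -0.01 over all genes. The test asks whether the mean change over both lines differs from 0. Its error is the gap between the lines' responses, drawn toward the spread over all genes. It does not test whether the lines moved alike, and with 1 array per group it carries no spread between cultures. All directions are relative to the other genes on the arrays. Without normalization between arrays the median of all genes itself was 0.13 higher at 12 h in LGP2 cells and 0.28 higher in 4KR cells. Of all genes called, 51.3% were higher at 12 h, a share that was 99.8% without normalization between arrays, 96.8% in the deposited table, 68.9% with each array centred on its median and 66.8% with plain background subtraction. Without normalization 16 genes fell at the threshold, of which ACTG1 was 1, and 76 did so in the deposited table, ACTG1 and MYH9 among them.

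**Figure D1:**
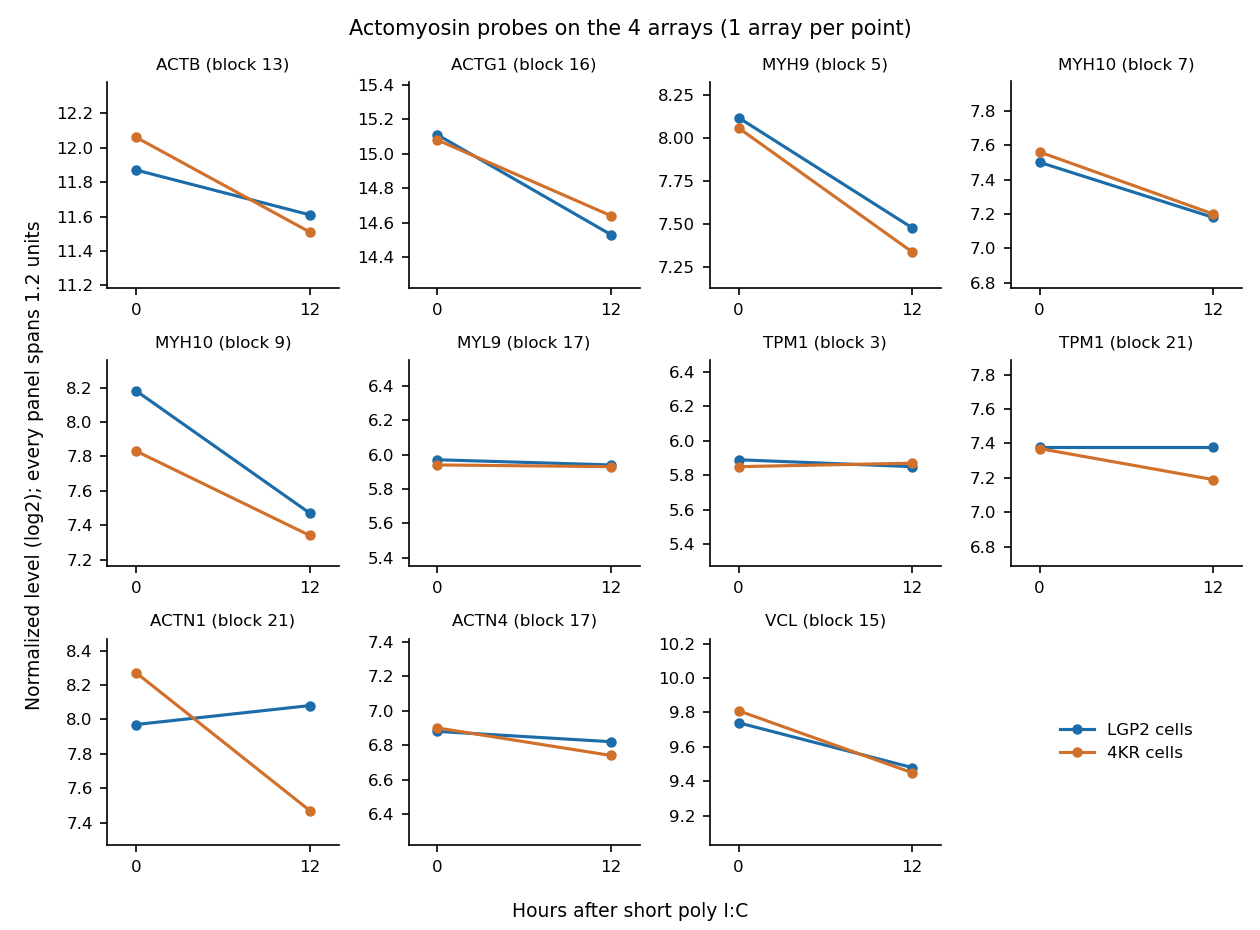
Normalized level (log2, vertical axis) of each of the 11 actomyosin probes at 0 h and 12 h (horizontal axis), with 1 point per array, LGP2 cells in blue and 4KR cells in orange, and lines joining the arrays of the same cells. Every panel spans the same number of log2 units. The lines for ACTB, ACTG1, MYH9, both MYH10 probes and VCL go down in both cell lines, those of MYL9 are nearly flat, and those of ACTN1 cross.

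The genes of both cytoplasmic actins were lower at 12 h in both lines, and 1 of them passed the test. ACTG1, which encodes gamma-actin, had deposited intensities of 19627 in LGP2 cells and 19259 in 4KR cells at 0 h, and of 12379 and 11401 at 12 h. Both values at 12 h lay below both at 0 h, and so did the scanner values before any scaling. Those went from 33760 to 24457 in LGP2 cells and from 32185 to 27576 in 4KR cells. The share of all genes with their 12 h values in this order was not counted, here or for the genes below. The log2 responses were -0.58 and -0.45. ACTG1 fell by 0.51 ± 0.049 (SE) on the log2 scale over both lines, with an adjusted p of 0.021 in limma, which is a level 1.43-fold lower at 12 h.

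ACTB, which encodes beta-actin and is widely used as a reference gene, had deposited intensities of 2046 in LGP2 cells and 2254 in 4KR cells at 0 h and of 1622 and 1378 at 12 h. Both 12 h values lay below both 0 h values. The log2 responses were -0.26 and -0.55, so that the level was 1.2-fold lower in LGP2 cells and 1.46-fold lower in 4KR cells. The change over both lines was -0.40 ± 0.085 (SE) on the log2 scale, and it missed the threshold at an adjusted p of 0.06 in limma. Among the 1574 brightest genes, where ACTB, ACTG1 and VCL lie, the median responses were -0.04 and -0.05.

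The actins are near-identical in their coding sequences. The probe sequences were not used here, so signal shared between actin genes cannot be told apart by probe. ACTBL2, the gene of a beta-actin-like protein, went the other way: it rose by 0.38 ± 0.036 (SE) on the log2 scale, with an adjusted p of 0.021 in limma. Of the muscle actins, ACTA2 (smooth muscle) fell by 0.30 ± 0.036 and ACTC1 (cardiac) fell by 0.34 ± 0.033, with adjusted p-values of 0.025 and 0.022 in limma. ACTA1 (skeletal), with responses of 0.06 and 0.08, and ACTG2 (enteric smooth muscle), with -0.05 and 0.0089, did not pass.

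Both myosin heavy chain genes among the 9, MYH9 and MYH10, fell. MYH14, the heavy chain of myosin IIC and one of the related genes, did not pass, with responses of 0.01 and -0.10 from a probe in block 21 and an adjusted p of 0.57 in limma. MYH9, the heavy chain of myosin IIA, had deposited intensities of 107 in LGP2 cells and 101 in 4KR cells at 0 h, and of 71.7 and 58 at 12 h. Both 12 h values lay below both 0 h values. The scanner values before scaling also went down, from 229.5 to 186.7 in LGP2 cells and from 212.1 to 189 in 4KR cells. The responses were -0.63 and -0.72 on the log2 scale, 1.55-fold and 1.65-fold lower. MYH9 fell by 0.68 ± 0.041 (SE) over both lines, with an adjusted p of 0.019 in limma, which was the furthest from 0 among the 9 genes.

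MYH10, the heavy chain of myosin IIB, was measured by 2 probes in different blocks of the array. The probe in block 7 had deposited intensities of 60.6 and 64 at 0 h and of 52.5 and 50.1 at 12 h, for LGP2 and 4KR cells in that order. The probe in block 9 had 114 and 81.9 at 0 h and 70.8 and 57.7 at 12 h. Each probe was lower at 12 h in both lines, with responses of -0.32 and -0.36 for the first and of -0.71 and -0.49 for the second. In 4KR cells this was relative to other genes only: before scaling the scanner values went from 150.7 to 170 and from 180.7 to 188.4, and without normalization between arrays the 4KR response of the gene was 0.07. In LGP2 cells the scanner value of the block 7 probe was nearly unchanged, 149.8 and 148.8, and that of the block 9 probe went from 241.5 to 184.8. Averaged over its probes, MYH10 had responses of -0.52 and -0.43 and fell by 0.47 ± 0.041 (SE) on the log2 scale, with an adjusted p of 0.021 in limma.

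The light chain among the 9 genes did not pass the test. MYL9, a regulatory light chain whose phosphorylation switches myosin II on, had deposited intensities of 4.01 and 3.7 at 0 h and of 4.8 and 4.2 at 12 h. Its scanner signal stood only 6.2 to 10.2 units above the blank spots, whose SD was between 1.05 and 1.28, and the log2 responses were -0.03 and -0.02. At that brightness the added offset of 50 shrinks any ratio. MYL12A, another regulatory light chain, had responses of -0.23 and -0.36 and fell by 0.29 ± 0.048 (SE), with an adjusted p of 0.039 in limma. MYL6, the essential light chain, had responses of -0.19 and -0.06 and an adjusted p of 0.17.

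TPM1, which encodes alpha-tropomyosin, did not pass the test. Its probe in block 21 had deposited intensities of 53.5 in LGP2 cells and 52.7 in 4KR cells at 0 h and of 64 and 49.4 at 12 h, and responses of -0.0022 and -0.18. Its probe in block 3 had between 1.9 and 3 on every array and stood 3.16 to 7.15 scanner units above the blanks. The gene's change over both lines was -0.05 ± 0.037 (SE), with an adjusted p of 0.41 in limma. TPM2, another tropomyosin gene, fell by 0.20 ± 0.035, with an adjusted p of 0.045 in limma.

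VCL, which encodes vinculin, had deposited intensities of 411 in LGP2 cells and 423 in 4KR cells at 0 h and of 365 and 328 at 12 h. Both 12 h values lay below both 0 h values, with log2 responses of -0.27 and -0.36. VCL fell by 0.31 ± 0.041 (SE) on the log2 scale, 1.24-fold, with an adjusted p of 0.029 in limma. This fall was relative to other genes only. The scanner values before scaling were 751.7 and 749.8 at 0 h and 765.1 and 841.4 at 12 h, and without normalization between arrays the change was 0.09, with an adjusted p of 0.52 in limma.

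The alpha-actinins did not pass the test, and ACTN1 was the gene on which the lines differed most. ACTN1, a crosslinker of stress fibres and adhesions, had deposited intensities of 94.1 in LGP2 cells and 121 in 4KR cells at 0 h and of 124 and 66.3 at 12 h. In LGP2 cells the value was higher at 12 h and in 4KR cells lower, with log2 responses of 0.11 and -0.80, the latter a 1.74-fold lower level. Subtracting the LGP2 response from the 4KR response gave -0.91, and ACTN1 was the 1 gene of 9 in which it was lower by at least 1.5-fold, against 0.432% of all genes. None of the 9 was higher by that much, against 0.451%. Among the other 8 genes the difference lay between -0.29 for ACTB and 0.13 for ACTG1. The difference has no replicate and was not tested. Over both lines the change of ACTN1 was -0.35 ± 0.24 (SE), with an adjusted p of 0.41 in limma.

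The ACTN1 probe lies in the first row of block 21, a region of the array where the responses of many probes differed between the lines. Among 255 other probes of similar level in that block the median response was 0.29 for LGP2 and -0.08 for 4KR, a median difference of -0.35. Among the 29 of these that lie in the same row the medians were 0.52 and -0.08, a median difference of -0.57. The ACTN1 difference minus that of its block was -0.56 and minus that of its row was -0.34, and 2 of the 255 and 2 of the 29 probes had a difference as low or lower. With the median of probes of the same block and level subtracted on each array, ACTN1 had responses of -0.19 (LGP2) and -0.72 (4KR). The difference was then -0.53, both responses had the same sign, and 0 of 9 genes passed 1.5-fold lower, against 0.146% of all genes.

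**Figure D2:**
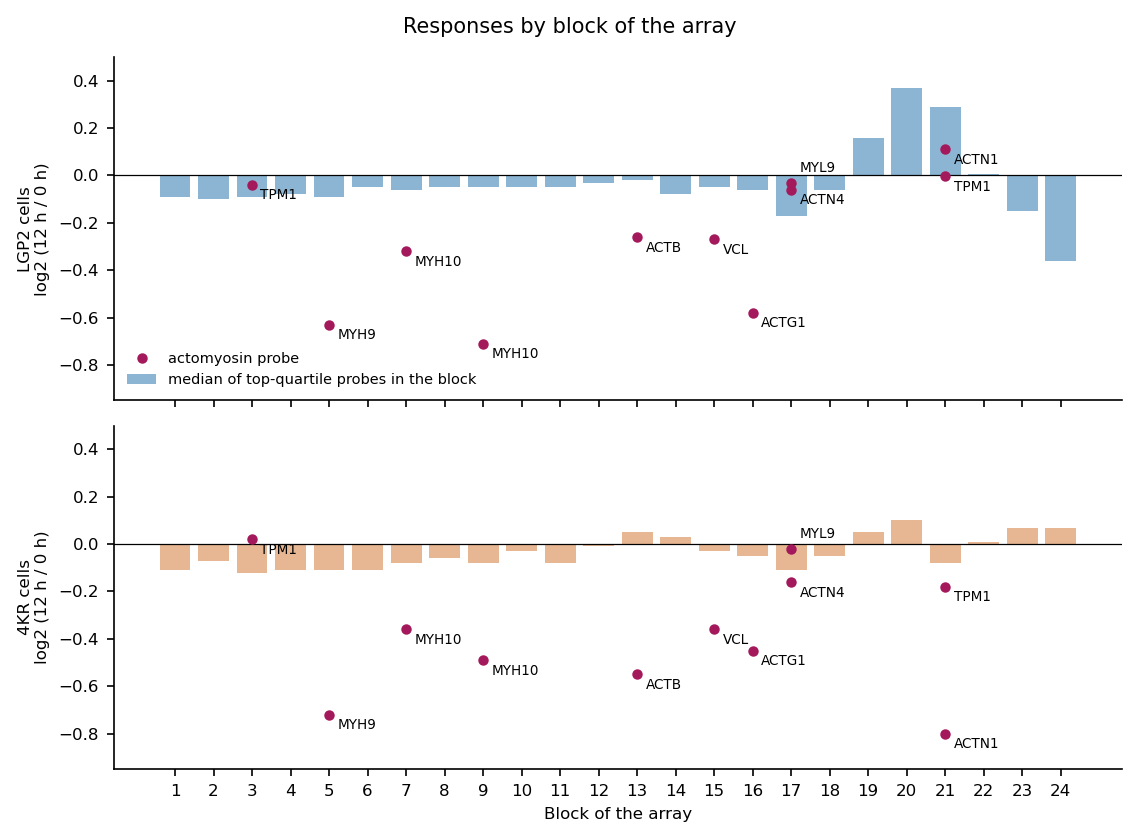
Log2 response (12 h over 0 h, vertical axis) in LGP2 cells (upper panel) and 4KR cells (lower panel) by block of the array (horizontal axis). Bars are the median response of the brightest probes in the block (top quartile of level) and points are the 11 actomyosin probes. The bars of LGP2 cells stand at 0.37 in block 20, 0.29 in block 21 and -0.36 in block 24, and those of 4KR cells at 0.10, -0.08 and 0.07. ACTN1 and 1 TPM1 probe lie in block 21, and the other actomyosin probes lie in blocks with medians between -0.17 and 0.05.

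ACTN4, the other nonmuscle alpha-actinin, had deposited intensities of 30.3 and 31.4 at 0 h and of 33.8 and 28.5 at 12 h. Its 12 h values lay on both sides of its 0 h values. The log2 responses were -0.06 and -0.16, and the change over both lines was -0.11 ± 0.044 (SE), with an adjusted p of 0.19 in limma.

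Between the lines, ACTN1 stood furthest apart of the 9 genes at both times, and its probe lies in block 21, described above. The median of 4KR minus LGP2 over the 9 genes was -0.02 at 0 h and -0.08 at 12 h, on the log2 scale. At 0 h the values ran from -0.15 for MYH10 to 0.30 for ACTN1, where the 2.5th and 97.5th percentiles of all genes were -0.26 and 0.18. At 12 h they ran from -0.60 for ACTN1 to 0.10 for ACTG1, and those percentiles were -0.21 and 0.19. For the difference of the responses, the median over the 9 genes was -0.09, against -0.0018 over all genes, whose 2.5th and 97.5th percentiles were -0.30 and 0.30. It was below 0 for 6 of 9, against 50.8%. Of the 4 genes that fell, MYH9 and VCL had a difference of -0.09 each, MYH10 of 0.09 and ACTG1 of 0.13, all within that range. The fit that called these 4 genes takes the difference between the lines as its error, so passing it favours a small difference. With 1 array per group, no interval can be put on these differences, and they do not show that the lines responded alike.

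**Figure D3:**
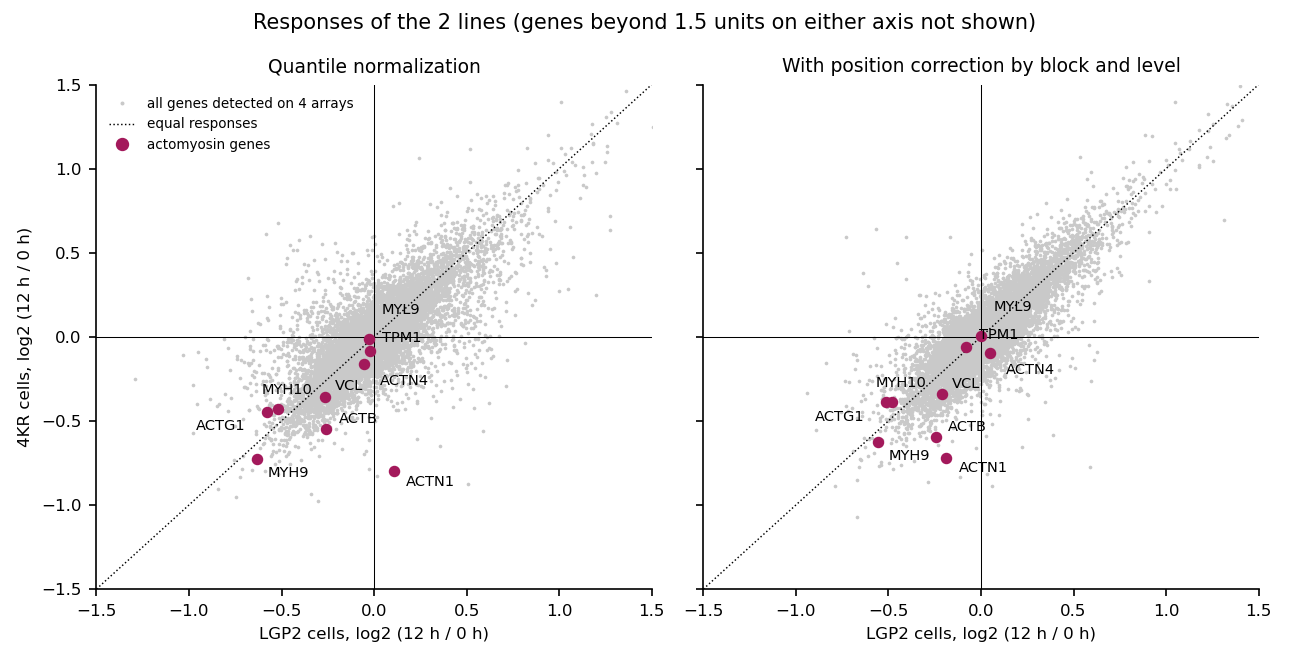
Log2 response in 4KR cells (vertical axis) against that in LGP2 cells (horizontal axis) for all genes detected on 4 arrays (grey) and the 9 actomyosin genes (red), after quantile normalization (left) and with position correction by block and level (right). The dotted line marks equal responses. MYH9, ACTG1, MYH10 and VCL lie near that line below 0 in both panels, and ACTN1 moves from 0.11 to -0.19 on the horizontal axis. The fit that called MYH9, ACTG1, MYH10 and VCL favours genes near that line.

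The sequences upstream of the 4 genes that fell are shown because they moved together and because serum response factor is the known regulator of many actin genes. They are the 250 bases before the RefSeq transcription start in GRCh38.p14, 5′ to 3′ on the gene's strand. Capitals mark a CArG box, the binding motif of serum response factor, or GGGCGG, a GC box, on either strand. In ACTG1 and MYH9, 2 GC boxes share a base and appear as 1 longer run. ACTG1 is on the minus strand at chr17:81512800-81513049, MYH9 on the minus strand at chr22:36387968-36388217, MYH10 on the minus strand at chr17:8630726-8630975 and VCL on the plus strand at chr10:73997866-73998115. The ACTN1 sequence is the 30 bases around its CArG box, on the minus strand at chr14:68977718-68977747.
ACTG1: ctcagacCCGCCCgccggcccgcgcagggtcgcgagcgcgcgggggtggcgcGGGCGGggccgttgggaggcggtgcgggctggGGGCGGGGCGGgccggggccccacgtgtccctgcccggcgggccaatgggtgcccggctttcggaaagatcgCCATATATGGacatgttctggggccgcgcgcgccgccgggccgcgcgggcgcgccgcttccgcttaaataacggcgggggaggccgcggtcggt
MYH9: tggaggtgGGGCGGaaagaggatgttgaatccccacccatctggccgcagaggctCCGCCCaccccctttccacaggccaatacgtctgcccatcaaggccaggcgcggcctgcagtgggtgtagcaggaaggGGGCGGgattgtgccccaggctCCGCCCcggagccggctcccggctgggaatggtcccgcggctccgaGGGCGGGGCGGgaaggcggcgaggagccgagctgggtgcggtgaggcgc
MYH10: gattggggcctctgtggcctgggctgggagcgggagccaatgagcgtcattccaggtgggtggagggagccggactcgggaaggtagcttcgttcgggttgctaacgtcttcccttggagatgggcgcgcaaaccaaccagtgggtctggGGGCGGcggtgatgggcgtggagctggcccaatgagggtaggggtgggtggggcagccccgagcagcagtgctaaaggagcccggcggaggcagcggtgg
VCL: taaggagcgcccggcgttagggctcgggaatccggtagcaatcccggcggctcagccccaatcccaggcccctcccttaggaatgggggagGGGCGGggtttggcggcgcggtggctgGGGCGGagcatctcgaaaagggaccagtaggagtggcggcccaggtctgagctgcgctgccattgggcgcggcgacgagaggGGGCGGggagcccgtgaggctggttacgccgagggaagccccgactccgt
ACTN1: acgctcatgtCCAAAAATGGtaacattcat

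The ACTG1 sequence holds 1 CArG box, CCATATATGG, and 4 GC boxes. MYH9 has 6 GC boxes, VCL 3 and MYH10 1, and none of these 3 windows holds a CArG box. Of the 10 genes, 8 had an entry in the table of starts, with 12 windows in all, and ACTB and MYL9 had none. A CArG box was held by 3 windows: those of ACTG1 and FLNA and 1 of the 4 ACTN1 windows. Over all 35116 windows of this length, 1.16% held a CArG box and 42.6% a GC box. Also searched on both strands were TATAAA, found in 10.7% of all windows and in 1 window of the actomyosin genes, an ACTN1 start. GGAATG, found in 11.9%, was present once each in MYH9, MYH10, VCL and the ACTN1 window with the CArG box. A match describes the letters of the window and is not a bound site. The genes with a CArG box included 1 that fell, ACTG1, and 1 that did not pass the test, ACTN1, and 3 genes without one fell. Whether serum response factor had a part in these changes was not tested.

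The size of each change was recomputed under 10 other ways of processing the arrays. ACTG1 was lower at 12 h in every one, between -0.71 and -0.34 on the log2 scale, and so was MYH9, between -0.91 and -0.25. Each passed the threshold in 10 of 11 settings in limma, ACTG1 missing it at an adjusted p of 0.052 with plain background subtraction and MYH9 at 0.052 without normalization between arrays. MYH10 was lower in all 11, between -0.66 and -0.07, and passed in 9. VCL passed in 7 and lay between -0.33 and 0.09, the latter without normalization between arrays. ACTB was lower in all 11, between -0.52 and -0.15, and passed in 5, among them both position corrections, with adjusted p-values in limma of 0.033 and 0.03. With position correction by block and level 5 of 9 fell, against 11.7% of all genes, and 0 rose, against 16%. MYL9, TPM1, ACTN1 and ACTN4 passed in none, and each had values on both sides of 0.

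**Figure D4:**
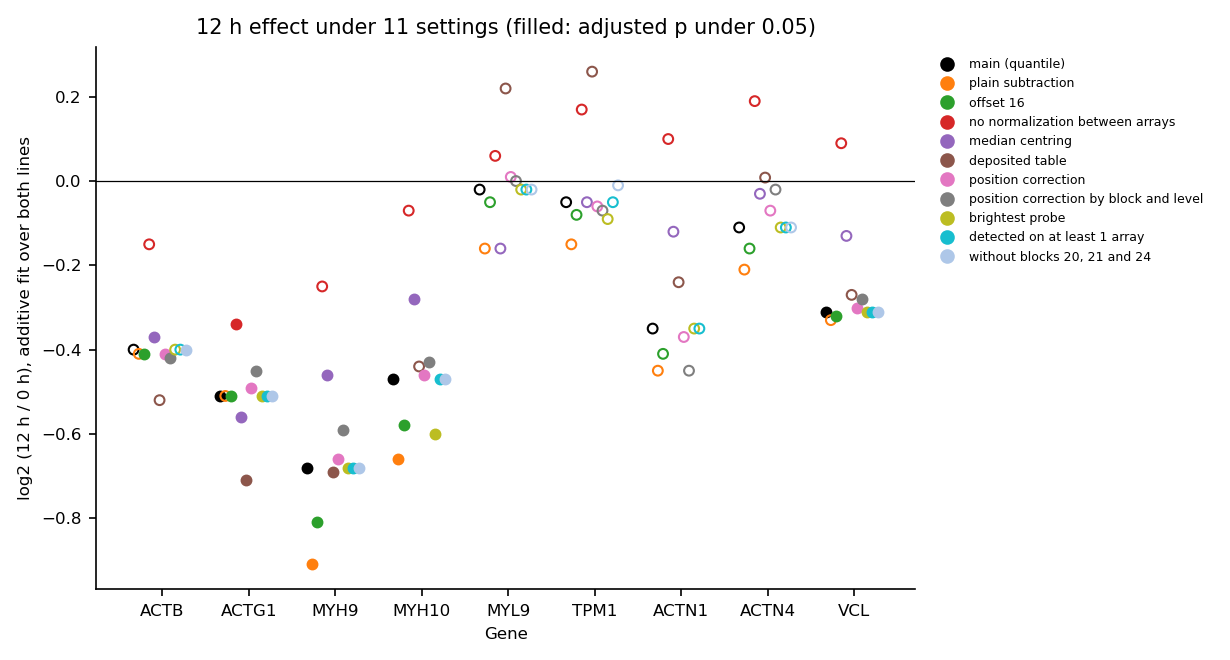
Log2 change at 12 h over both lines in the additive limma fit (vertical axis) for each of the 9 genes (horizontal axis) under 11 settings (colours), filled where the adjusted p was under 0.05. ACTG1, MYH9, MYH10 and ACTB lie below 0 in every setting, VCL in all but the one without normalization between arrays, where it stands at 0.09, and MYL9, TPM1, ACTN1 and ACTN4 lie on both sides of 0.

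The other genes of the pathway were taken from 5 lists, of which counts in the limma fit are given beside the 8.73% of all genes that fell and the 9.2% that rose. Among nonmuscle actin and myosin subunits outside the 10 genes, 10 of 15 were detected on all arrays, 2 of which fell (MYL12A and TPM2) and 1 rose (ACTBL2). Among genes of filament turnover and crosslinking, 7 of 22 detected fell and 0 rose. They were PFN2 (profilin 2, which loads actin monomers), by 0.46, CAPZB (a capping protein), by 0.38, CTTN (cortactin), by 0.28, RDX (radixin, a membrane linker), by 0.30, DSTN (destrin, a severing protein), by 0.32, TMSB10 (a monomer-binding thymosin), by 0.28, and CALD1 (caldesmon), by 0.23. Their adjusted p-values in limma were between 0.023 for CAPZB and 0.047 for DSTN and TMSB10. MSN, the gene of moesin, was the 1 gene of this list past 1.5-fold, with responses of -0.61 and -0.28, LGP2 first, and an adjusted p of 0.06 in limma.

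Of the Arp2/3 complex, which starts branched filaments, and its activators, 5 of 14 detected fell and 1 rose. The subunit genes that fell were ARPC1A by 0.38, ARPC1B by 0.33, ARPC2 by 0.25 and ARPC4 by 0.22, with adjusted p-values in limma from 0.021 for ARPC1A to 0.041 for ARPC4. CYFIP1, of the WAVE complex that activates Arp2/3, fell by 0.30, with an adjusted p of 0.042 in limma. ARPC5L, an alternative subunit, rose by 0.29, with an adjusted p of 0.03 in limma.

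At focal adhesions, where vinculin sits, 5 of 20 detected genes fell and 1 rose. EVL, a factor in actin polymerisation, fell by 0.47, ILK (integrin-linked kinase) by 0.36 and its partner LIMS1 by 0.31. Their adjusted p-values in limma were 0.02, 0.031 and 0.027. ITGA6 fell by 0.22 and CSRP1 by 0.26, while BCAR1, an adaptor, rose by 0.23, with adjusted p-values in limma of 0.035, 0.046 and 0.032. ITGB1, the integrin beta-1 chain, had the lowest response of the list, -1.29 in LGP2 cells and -0.25 in 4KR cells. It did not pass (adjusted p of 0.16 in limma), its probe lies in block 24, and with position correction by block and level the responses were -0.94 and -0.33.

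Of serum response factor (SRF), its cofactors and known targets, 2 of 14 detected fell and 2 rose. The genes that rose were the immediate-early genes EGR1, by 2.43 ± 0.04 (SE), and FOS, by 0.74 ± 0.042, with adjusted p-values of 0.0029 and 0.019 in limma. JUNB, another immediate-early gene, had responses of 0.07 and 0.17 and did not pass, with an adjusted p of 0.15. EGR1 had responses of 2.39 and 2.47, and FOS of 0.79 and 0.69. The targets of the contractile kind that passed, ACTA2 and TPM2, fell. Others did not pass: TAGLN, with responses of -0.03 (LGP2) and -0.001 (4KR), ZYX, with -0.0067 and 0.01, CNN2, with 0.02 and -0.13, and MYL6, with -0.19 and -0.06. The median responses of the 14 genes were -0.02 and -0.0011. SRF itself had responses of -0.41 and 0.14, and its cofactor genes MRTFA, with 0.08 and -0.03, and MRTFB, with -0.14 and -0.0012, lay closer to 0. None of these 3 passed, with adjusted p-values of 0.61, 0.73 and 0.41 in limma. MRTFA was dim as well, at log2 levels of 5.94 to 6.02.

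Of the 25 genes of these 5 lists that passed, 20 fell and 5 rose. Without normalization between arrays, where all genes shift upward, 13 of the 20 turned above 0. How many of all the genes that fell do so was not counted. Of the 5 that rose 0 turned sign in any setting, and an upward shift would not turn them. ARPC1A, at 0.02, CYFIP1, at 0.0043, and ILK, at 0.02, were among those that turned, while EVL, at -0.03 or lower, PFN2, at -0.0056 or lower, and CAPZB, at -0.02 or lower, stayed below 0 in all 11.

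**Figure D5:**
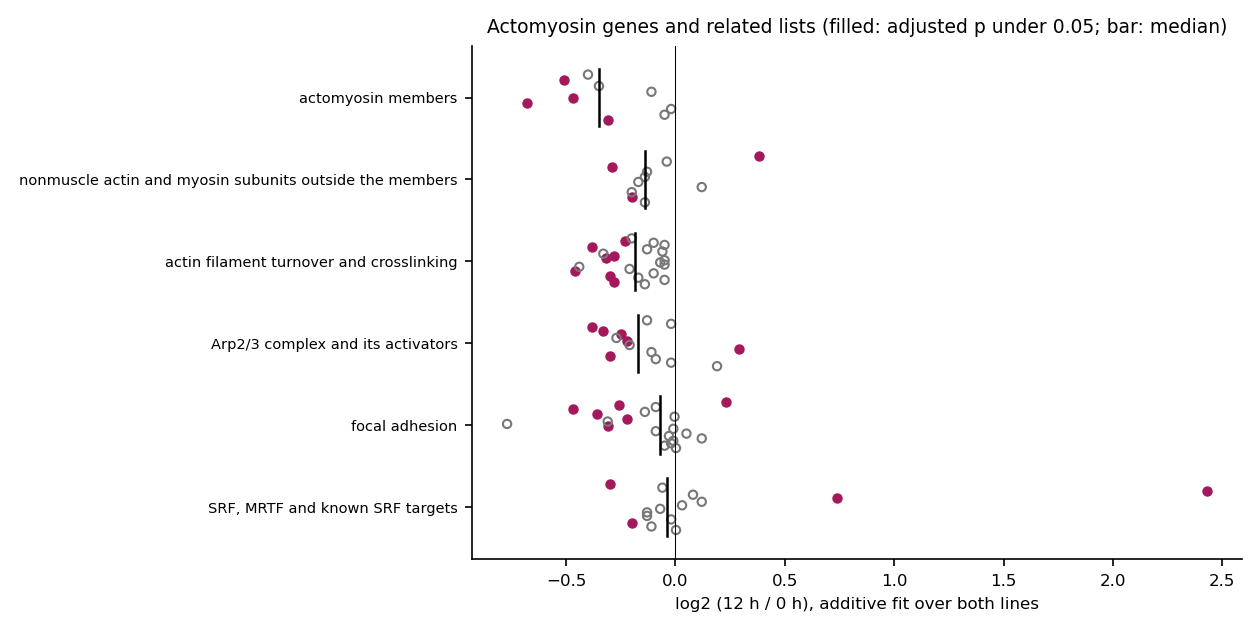
Log2 change at 12 h over both lines in the additive limma fit (horizontal axis) for each gene of the actomyosin set and of the 5 related lists (vertical axis), filled where the adjusted p was under 0.05, with a bar at the median of each list. The actomyosin median stands at -0.35, and EGR1, at 2.43, and FOS, at 0.74, lie far to the right in the SRF list. These values follow quantile normalization, and 13 of the 20 related genes that fell lie above 0 without normalization between arrays.

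The 5 related genes whose responses lay nearest to the medians of the 9 genes, -0.26 in LGP2 cells and -0.43 in 4KR cells, were ILK, DSTN, MYL12A, ARPC3 and ACTA2. The measure was the Euclidean distance over the responses of both lines, which was 0.036 for ILK and for DSTN, 0.075 for MYL12A, 0.097 for ARPC3 and 0.1 for ACTA2. ILK had responses of -0.29 and -0.44 and DSTN of -0.23 and -0.41. ARPC3, an Arp2/3 subunit, had -0.20 and -0.35 and an adjusted p of 0.052 in limma.

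Marker genes were read for the label and for other cell types. Of 9 genes chosen as markers of HEK293, 8 were detected on all 4 arrays and KRT8 had no named probe. Their summed normalized level, on the linear scale, was 2286 and 2305 at 0 h and 1992 and 2022 at 12 h. The bright genes weigh most in such a sum. By gene the fall was smaller than for the actomyosin set, with median log2 responses of -0.07 (LGP2) and -0.11 (4KR) against -0.26 and -0.43. The furthest response from 0 among the HEK293 markers was that of CDH2 (N-cadherin) in LGP2 cells, at -0.78 against -0.20 in 4KR cells. The CDH2 probe lies in block 24. SOX2, a transcription factor, had responses of 0.24 and 0.10, and neither gene passed. NEFL, a neurofilament, fell by 0.38, with an adjusted p of 0.021 in limma, and was at 0.07 without normalization between arrays. The summed level of 8 smooth muscle markers was 871.6 and 876.6 at 0 h and 800.8 and 806.2 at 12 h, with 6 detected on all arrays. That of the striated muscle markers, 8 of 10 detected, was 685.8 and 684.5 at 0 h and 653.4 and 651.6 at 12 h. DES (desmin), a marker of smooth muscle, fell by 0.20, with an adjusted p of 0.039 in limma, and was at 0.20 without normalization between arrays. Of the fibroblast markers, 1 of 7, DCN, was detected on all arrays and COL1A2 and PDGFRA on none. Of the keratinocyte markers, 5 of 7 were detected on all arrays, with sums between 830.9 and 933 and LORICRIN on none. The part of these markers in the actomyosin result was not tested.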

How the data were processed

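RNA from 4 samples of human HEK293 cells was measured on single-colour Cy5 arrays of 27456 spots, 24460 of them gene probes. Per the file headers, the scanner tables deposited by the authors give the median intensity of each spot, not normalized. The authors' series table also holds an intensity per probe. Its values follow the scanner median less about the blank mean, multiplied by 0.4142 to 0.5992 depending on the array. The sources used here do not give the software. The files name no genome build.

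The mean of the 384 blank spots per array was taken as background, followed by normexp with an offset of 50, quantile normalization and log2, in limma 3.58.1 with R 4.3.3. The offset shrinks ratios of dim genes. Probes of a gene were averaged after 4 gene probes that the scanner had rejected were left out. The additive fit over line and time ran on 15736 genes with Benjamini-Hochberg adjustment over all of them. It was also run on simulated data with independent noise and no effect of position on the array. Those data hold no spread between cultures, so that run does not bear on the p-values given here. With 1 array per group, the number of arrays limits the precision, and single-line responses have no test.

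The 10 genes and the lists were chosen with earlier results of these data known. Named were all 10 genes, up to 2 genes per direction and list past 1.5-fold, and the 5 related genes nearest to the median responses. Genes called in the fit, members of the actin family and the SRF cofactors were named after their values were seen. The alternatives were background correction, offset, normalization, the deposited table, position, probe choice and the filter on detection. Position correction by block and level, and leaving out blocks 20, 21 and 24, were added after seeing the data. 1 further list of related genes is not reported here.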

Additional observations from a re-analysis of the deposited data

Results flagged for a closer look

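The responses of ACTN1 had opposite signs in the lines, 0.11 in LGP2 cells and -0.80 in 4KR cells, a difference of -0.91 on the log2 scale with 1 array per group. The difference was not tested. It was -0.53 with position correction by block and level, where both responses were below 0, and -1.27 in the deposited table.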

How the results depend on the processing

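Without normalization between arrays, the median response of the 9 genes was 0.02 (LGP2) and 0.07 (4KR), its difference was 0.07, and VCL changed by 0.09. The medians of all genes were then 0.13 and 0.28, and 0.13 for the difference. With each array centred on its median the responses were -0.13 and -0.22. In the deposited table the median difference was -0.19, against -0.11 over all genes. Under every setting the median response of the 9 genes was below that of all genes. The number of the 9 genes that fell in limma was 4, and it was 2 with plain subtraction, 1 without normalization and 2 in the deposited table. The number called over all genes was 2820, against 1272 with plain subtraction, 6760 without normalization, 5281 with median centring, 4365 with position correction by block and level, and 2383 in the deposited table. The cause was not tested. MYL9 and the TPM1 probe in block 3 stood 3.16 to 10.2 scanner units above the blank spots. The additive fit already sets 12 h against 0 h within each line. No array could be left out, since none would remain in its group.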
